A study of Mus musculus with 6 samples.

Results

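Proteins that set the lifetime of inflammatory mRNAs were represented here by 10 mouse genes, taken by symbol from a table of 57180 gene rows: Zc3h12a, N4bp1, Rc3h1, Rc3h2, Zfp36, Zfp36l1, Zfp36l2, Arid5a, Elavl1 and Khsrp. All 10 were found as protein-coding rows, and all 10 were among the 14605 genes that passed the filter on low counts. The libraries were poly(A)-selected mRNA from GC-1 spg cells, a mouse line immortalised from type B spermatogonia. Of 6 libraries, 3 are labelled SNHG1 overexpression and 3 vector control, all taken 24 hours after transfection, and the study sets SNHG1, a long non-coding RNA made by a small nucleolar RNA host gene, within IL-17A signalling. All 6 libraries also carry non-obstructive azoospermia as their treatment label, so this entry does not separate the groups. No source used here says what was done under that name or whether replicates came from separate cultures. The p-values therefore rest on library-to-library spread, which may be technical.

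Many inflammatory mRNAs carry destabilising elements in the 3′ untranslated region, and the proteins that read these elements decide how long the message lasts. Regnase-1, the endoribonuclease encoded by Zc3h12a, cuts mRNAs with a short stem and a loop of pyrimidine, purine and pyrimidine, and Roquin-1 and Roquin-2 (Rc3h1, Rc3h2) bind similar hairpins. Tristetraprolin (TTP, Zfp36) and its relatives (Zfp36l1, Zfp36l2) bind AU-rich elements and recruit the CCR4-NOT deadenylase, whereas HuR (Elavl1) and Arid5a protect messages from decay. Signalling from the IL-17 receptor through its adaptor Act1 is known to inactivate Regnase-1, which lengthens the life of its targets.

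The shallowest library held 15521900 counts and the deepest 21095427, which makes a single count worth 0.0644 and 0.0474 CPM there (CPM are counts scaled to library size, with TMM factors). Snhg1 itself had 467, 555 and 487 counts in SNHG1-labelled libraries, against 464, 402 and 385 in vector controls, and its log2 fold change of 0.14 ± 0.10 (SE) did not pass (edgeR, adjusted p = 0.52). Snhg1 thus gave no support to the labels, and every direction below is only that of the labels, written as SNHG1-labelled libraries against vector controls. The first principal component (34.4% of the variance) separated the groups, at -8.44, -19.6 and -19.4 in SNHG1-labelled libraries and 13.8, 19.9 and 13.8 in vector controls. On the second SNHG1 overexpression replicate 1 lay away from its group, at 24.3, with its fellow replicates at -6.60 and -11.6. Of 13 germ cell markers, 7 had no count in any library, Ddx4 and Kit included, and Gfra1 alone averaged over 1 CPM, whereas 5 of 6 peritubular and fibroblast markers did. Within that list Col1a2 was at 13175 ± 96.8 CPM in SNHG1-labelled libraries and 16173 ± 455 CPM in vector controls and Col3a1 at 511 ± 44.1 CPM in SNHG1-labelled libraries and 734 ± 28.2 CPM in vector controls, whereas Pdgfra went the other way, at 288 ± 22.0 CPM in SNHG1-labelled libraries and 208 ± 7.91 CPM in vector controls (SD, n = 3 each). The summed CPM of 9 macrophage and blood markers was 42.0 to 48.2 in SNHG1-labelled libraries and 33.7 to 34.6 in vector controls. Cd14 was higher, at 24.4 ± 2.10 against 14.4 ± 0.632 CPM, as was Cd68, at 3.83 ± 0.188 against 2.47 ± 0.274 CPM. Lyz2 was level, at 15.32 ± 1.17 against 15.35 ± 1.16 CPM, and Csf1r lower, at 1.04 ± 0.0965 against 1.43 ± 0.0824 CPM. The pan-leukocyte gene Ptprc was at 0.297 ± 0.171 against 0.132 ± 0.0533 CPM and the macrophage gene Adgre1 at 0.168 ± 0.0796 against 0.336 ± 0.100 CPM. Of 5 Sertoli markers, Wt1 and Cldn11 had no count in any library. Rhox5 was at 594 ± 54.4 against 533 ± 20.3 CPM and Sox9 at 59.8 ± 3.75 against 62.2 ± 8.60 CPM. Amh was low, at 0.873 ± 0.345 against 0.638 ± 0.322 CPM (all SD, n = 3 each). In bulk RNA, more cells of a type and more RNA per cell cannot be told apart, and the part of these markers in the results below was not tested.

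Zc3h12a holds in its own 3′ untranslated region (856 bases) sequences that match the kind of hairpin its protein cuts. A stem was defined as 6 Watson-Crick base pairs around a loop of pyrimidine (T or C), purine (A or G) and pyrimidine, read on the sense strand of the longest annotated 3′ untranslated region of each gene. The hairpins of Zc3h12a, 1 of each Roquin gene and those of 2 listed target mRNAs that rose are shown 5′ to 3′ with the loop in capitals, because such elements are what Regnase-1 and the Roquins are known to read. Sequences are from GENCODE M21 transcripts (GRCm38) in DNA letters, with positions counted from the base after the stop codon.
Zc3h12a, from base 192 to 214: tgttgatacaCATtgtatctctg
Zc3h12a, from base 374 to 396: agttaggcacCATgtgcctgctc
Zc3h12a, from base 598 to 620: gagatttaaaTATtttaaatgaa
Rc3h1, from base 3859 to 3881: caataacttcTGTgaagttgcct
Rc3h2, from base 1573 to 1595: aattaacttcTGTgaagttgttt
Nfkbiz, from base 98 to 120: aagttgtttcTATgaaacaaacc
Nfkbiz, from base 126 to 148: agttcactatTATatagtggatt
Nfkbid, from base 211 to 233: aggtgatttcTGTgaaatcgagc
Nfkbid, from base 239 to 261: tgattgtttcTGTgaaacactct

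At least 1 such hairpin was found in 3 of the 10 members, with 3 in Zc3h12a, 4 in Rc3h1 and 1 in Rc3h2, and in 8.8% of 20662 protein-coding genes. Longer regions held them more often: of 2738 regions within 1.25-fold of the length of that of Zc3h12a 5.48% had 1 or more, against 35.01% of the 437 regions as long as that of Rc3h1 (7181 bases). Base composition was not separated from length. Of the Rc3h1 hairpins, 2 overlap within a run of alternating T and A. The printed targets were taken among those that rose. Of the 29 listed targets 10 held a hairpin. Among these Nfkbiz, Nfkbid and Tfrc rose, whereas Rel, Fos, Vegfa and Tnfrsf4 did not pass. Lcn2, Ccl2, Stat3, Ier3 and Cxcl1 rose without a hairpin of this definition. Il6 had none either, although Arid5a is known to protect Il6 and Stat3 mRNAs from Regnase-1. A missing match therefore does not show that a message is no target. The match describes the letters and is not a measured site of cleavage.

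The AU-rich nonamer TTATTTATT, which the TTP family binds, was found in 6 of the 10 members, against 7.7% of all 20662 genes. Each of the 3 TTP family genes had 1 copy, Rc3h1 and Rc3h2 had 1 each, and Elavl1 had 8 counted with overlap, whereas Zc3h12a, N4bp1, Arid5a and Khsrp had none. Among regions within 1.25-fold of their own length, 3.8% held the nonamer for Zfp36 (774 bases), 9.7% for Zfp36l1 (1835 bases) and 9.6% for Zfp36l2 (1822 bases), against 27.9% for Rc3h1, 21.3% for Rc3h2 and 16.8% for Elavl1, whose regions are longer. Of the 29 listed targets 10 held the nonamer. Among these Cxcl1 alone rose, whereas Ptgs2, Rel, Fos, Dusp1 and Vegfa did not pass. The sites of the family, the first in Elavl1 and the first of 2 in the target Cxcl1 are shown with the nonamer in capitals.
Zfp36, from base 579 to 607: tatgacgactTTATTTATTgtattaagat
Zfp36l1, from base 1394 to 1422: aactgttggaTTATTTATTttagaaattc
Zfp36l2, from base 811 to 839: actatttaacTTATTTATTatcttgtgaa
Elavl1, from base 3784 to 3812: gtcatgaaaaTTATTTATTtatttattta
Cxcl1, from base 92 to 120: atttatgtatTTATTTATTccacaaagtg

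Regnase-1 and a single TTP family gene were higher in SNHG1-labelled libraries, and no member was lower. Zc3h12a rose 4.42-fold and Zfp36l1 1.58-fold. The other 8 members did not pass edgeR's quasi-likelihood test with Benjamini-Hochberg adjustment over all genes. Of all 14605 genes, 2.4% passed in either direction, 1.54% higher and 0.856% lower, and the median log2 fold change was 0.01, against 0.14 over the 10 members. Groups did not overlap for 5 members, Zc3h12a, N4bp1, Zfp36, Zfp36l1 and Khsrp, all higher in SNHG1-labelled libraries; of all tested genes 23.7% had groups without overlap, 11.4% on the higher side. At an unadjusted p under 0.05 there were 4 members, against 17% of all genes. DESeq2 and limma-voom each called 2 members as well, against 5.45% and 2.38% of the genes they tested.

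**Figure D1:**
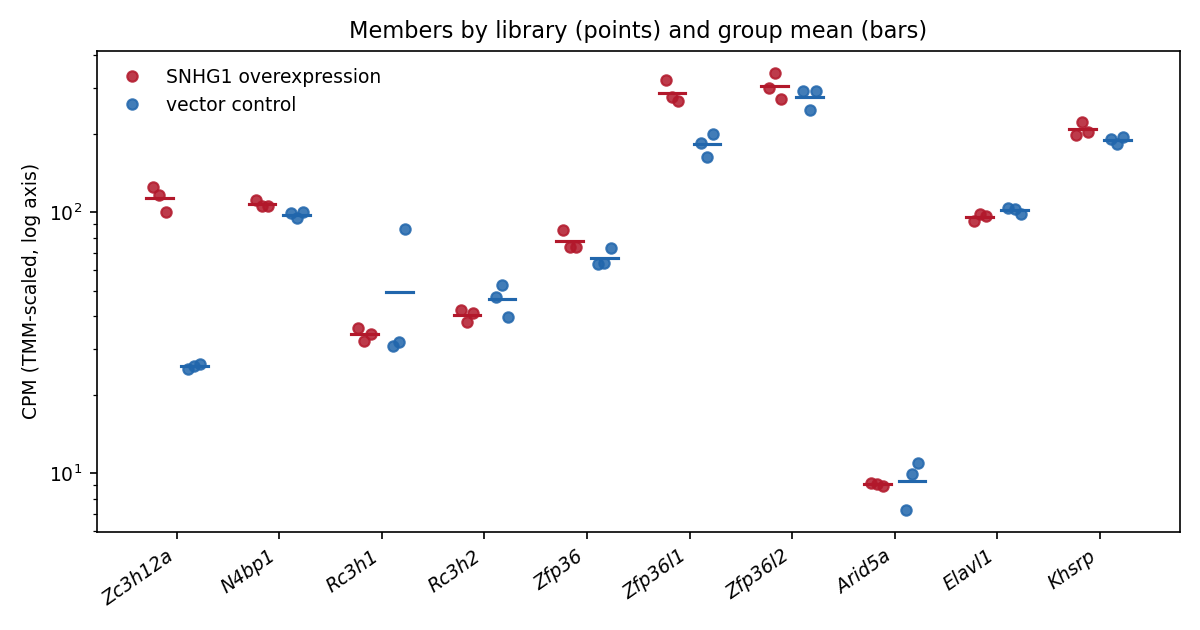
CPM of each member in the 6 libraries on a log axis, with labelled SNHG1 overexpression libraries in red on the left and vector controls in blue on the right; short bars are group means (n = 3 each). Zc3h12a lies at 100.4 to 124.6 CPM in SNHG1-labelled libraries, above 25.2 to 26.3 CPM in vector controls, and vector control replicate 3 holds the single high Rc3h1 value of 86.4 CPM.

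Zc3h12a had 124.6, 116.0 and 100.4 CPM in SNHG1-labelled libraries, against 25.2, 25.7 and 26.3 CPM in vector controls (2425, 2443 and 1935 counts against 528, 399 and 484). The lowest labelled library lay far above the highest vector library, and the vector controls were close to each other. The log2 fold change was 2.14 ± 0.09 (SE, n = 3 per group), with a 95% interval of 3.84- to 5.09-fold (edgeR, adjusted p = 1.47e-05). It was the 19th largest increase among the 225 genes called higher. Without SNHG1 overexpression replicate 1 the log2 fold change was 2.07 (edgeR, adjusted p = 5.13e-05), and over all 14 alternatives the adjusted p was at most 0.000553. Zc3h12a (ENSMUSG00000042677) lies on chromosome 4 at 125012216 to 125021633 in the deposited table, whose build is not named.

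N4bp1 encodes an endoribonuclease related to Regnase-1 that also restrains cytokine mRNAs. It had 111.6, 105.3 and 106.1 CPM in SNHG1-labelled libraries and 99.2, 94.99 and 100.03 CPM in vector controls. All labelled values were above all vector values, but the difference was small, at 0.13 ± 0.05 on the log2 scale (SE), and did not pass (edgeR, adjusted p = 0.261). The 95% interval of the change was 1.01- to 1.197-fold. The within-library log2 ratio of Zc3h12a to N4bp1 averaged 0.07 in SNHG1-labelled libraries and -1.93 in vector controls, a difference of 2.00, with a two-sided exact permutation p of 0.1, the smallest that 3 against 3 libraries can give, and 0.2 after adjustment over the 6 pairs compared.

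Roquin-1 and Roquin-2 did not pass. Rc3h1 had 36.0, 32.2 and 34.2 CPM in SNHG1-labelled libraries and 30.9, 31.9 and 86.4 CPM in vector controls. Vector control replicate 3 was therefore more than 2-fold above every other library, and the groups overlapped because of it. The log2 fold change was -0.54 ± 0.37 (SE; edgeR, adjusted p = 0.488), and 0.12 without that library (edgeR, adjusted p = 0.55), so the sign rested on 1 library. Such single-library values were rare: in vector control replicate 3, 6 of 8235 genes averaging at least 20 CPM were over 2-fold above both other vector controls (0.0729%). Zbtb37 and Rabgap1l, which neighbour Rc3h1 and were looked up after its values were seen, stood at 39.5 and 30.9 CPM in that library, against 42.3 and 41.9 CPM and 30.2 and 31.3 CPM in the other vector controls. What raised the counts of Rc3h1 there was not tested.

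Rc3h2 had 42.2, 38.1 and 41.2 CPM in SNHG1-labelled libraries and 47.5, 52.5 and 39.8 CPM in vector controls. The groups overlapped, and the log2 fold change of -0.20 ± 0.10 (SE) did not pass (edgeR, adjusted p = 0.366). Rc3h2 has the lowest GC content of the members, 38.8% in its longest transcript, lower than all but 3.72% of tested genes, and a merged exon length of 19624 bases. Across tested genes the log2 fold change followed GC content (rho 0.29 by rank; genes are not independent) and ran against length (rho -0.20). With the trends of each library with GC content and length removed, an alternative chosen after seeing the data, the value for Rc3h2 was -0.02 (edgeR, adjusted p = 0.92). The same removal took Zfp36 from 0.22 to 0.16 and Zfp36l2 from 0.14 to 0.08, whereas N4bp1 went from 0.13 to 0.14. Zc3h12a stood at 2.07 and Zfp36l1 at 0.64 there. For Khsrp the lowest value in the alternatives was 0.07, against 0.14.

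**Figure D2:**
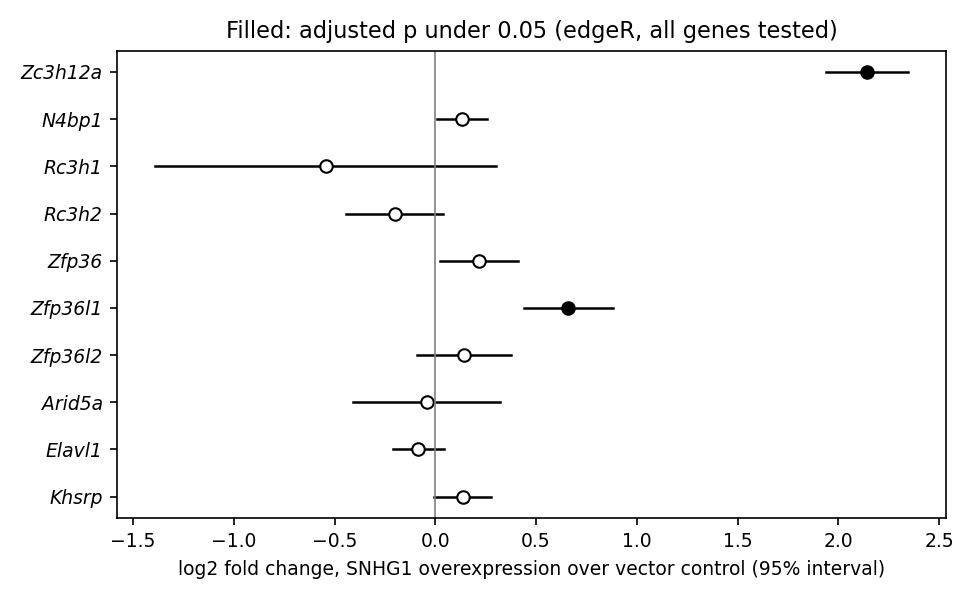
Log2 fold change of each member, labelled SNHG1 overexpression over vector controls (n = 3 each), with its 95% interval from edgeR; filled points have an adjusted p under 0.05 over all tested genes. Zc3h12a at 2.14 and Zfp36l1 at 0.66 are filled, and Rc3h1 has the widest interval, -1.39 to 0.30.

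Within the TTP family Zfp36l1 was higher in SNHG1-labelled libraries. Zfp36l1 encodes an AU-rich element binder also known for restraining cell cycle and differentiation transcripts. It had 320.4, 276.0 and 266.3 CPM in SNHG1-labelled libraries and 184.4, 162.9 and 198.8 CPM in vector controls (6235, 5811 and 5130 counts against 3870, 2524 and 3662). The groups did not overlap, and SNHG1 overexpression replicate 1 was the highest library. The log2 fold change was 0.66 ± 0.10 (SE, n = 3 per group), with a 95% interval of 1.36- to 1.84-fold (edgeR, adjusted p = 0.0141), and 0.57 without that replicate (edgeR, adjusted p = 0.0173). Without vector control replicate 1 the log2 fold change was 0.66 and no longer passed (edgeR, adjusted p = 0.0662), with values between 1.13e-08 and 0.0662 in the 14 alternatives. Zfp36l1 (ENSMUSG00000021127) is on chromosome 12 at 80154528 to 80159787 in the deposited table.

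Zfp36 encodes TTP, which destabilises Tnf and chemokine mRNAs and whose own message carries the AU-rich site printed above. It had 85.2, 73.9 and 73.8 CPM in SNHG1-labelled libraries and 63.7, 64.1 and 72.7 CPM in vector controls. The lowest labelled value was just above the highest vector value, and the log2 fold change of 0.22 ± 0.08 (SE) did not pass (edgeR, adjusted p = 0.246). Zfp36l2 encodes the most abundant member of the family in CPM, with 299.6, 342.8 and 272.6 CPM in SNHG1-labelled libraries and 290.5, 246.0 and 292.1 CPM in vector controls. Its groups overlapped, at 0.14 ± 0.10 on the log2 scale (SE; edgeR, adjusted p = 0.504).

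Per kilobase of merged exons, which allows levels of different genes to be set side by side, Zfp36l1 made up 46.9 ± 2.87% of the family sum in SNHG1-labelled libraries and 38.4 ± 0.569% in vector controls (SD, n = 3 each). Zfp36l2 made up 42.1 ± 3.55% in SNHG1-labelled libraries and 49.4 ± 1.14% in vector controls, and Zfp36 10.9 ± 0.714% in SNHG1-labelled libraries and 12.2 ± 0.831% in vector controls. The family sum was 205 ± 15.3 CPM per kb in SNHG1-labelled libraries and 158 ± 14.2 CPM per kb in vector controls (SD, n = 3 each). The log2 ratio of Zfp36l1 to Zfp36 was higher in all 3 labelled libraries than in any vector library, by 0.44 on average, and that of Zfp36l1 to Zfp36l2 by 0.52. Each had a two-sided exact permutation p of 0.1, the smallest possible here, and 0.2 after adjustment over 6 pairs. The ratio of Zfp36 to Zfp36l2 differed by 0.07 (two-sided exact permutation p = 0.6).

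**Figure D3:**
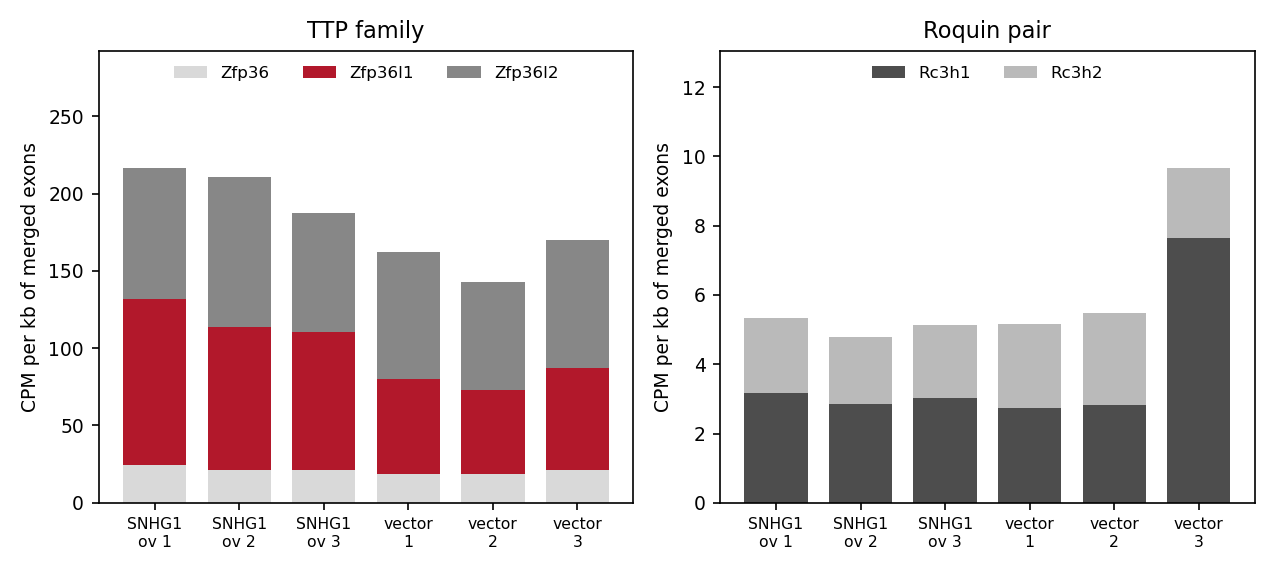
Stacked CPM per kb of merged exons in each library for the TTP family (left) and the Roquin pair (right), labelled SNHG1 overexpression libraries before vector controls. The Zfp36l1 segment spans 89.1 to 107.1 CPM per kb in SNHG1-labelled libraries and 54.5 to 66.5 in vector controls, and the Roquin bar of vector control replicate 3 reaches 9.67 against 4.79 to 5.49 in the other 5.

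Genes for stabilisers and for KSRP did not pass. Arid5a encodes a protein that protects Il6 and Stat3 mRNAs from Regnase-1. It was the least abundant member, with 9.20, 9.07 and 8.98 CPM in SNHG1-labelled libraries and 7.24, 9.94 and 10.96 CPM in vector controls. The vector controls spanned the labelled ones, at a log2 fold change of -0.04 ± 0.16 (SE; edgeR, adjusted p = 0.914), with a 95% interval of 0.754- to 1.25-fold. Without vector control replicate 3 the value was 0.08 (edgeR, adjusted p = 0.836).

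Elavl1 encodes HuR, which binds AU-rich elements and stabilises their mRNAs. It had 92.8, 98.9 and 96.8 CPM in SNHG1-labelled libraries and 103.7, 103.3 and 98.8 CPM in vector controls. SNHG1 overexpression replicate 2 and vector control replicate 3 overlapped narrowly, and the log2 fold change was -0.08 ± 0.05 (SE; edgeR, adjusted p = 0.469). Khsrp encodes KSRP, a KH-domain protein that promotes decay of AU-rich mRNAs. It had 198.4, 222.1 and 202.5 CPM in SNHG1-labelled libraries and 190.4, 182.8 and 193.6 CPM in vector controls. These groups did not overlap, but 0.14 ± 0.06 on the log2 scale (SE) did not pass (edgeR, adjusted p = 0.312). The 95% intervals were 0.865- to 1.03-fold for Elavl1 and 0.996- to 1.21-fold for Khsrp.

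On the scale of CPM per kb of merged exons the order of levels differed between groups. In the vector controls Zfp36l2 led at 78.2 ± 7.41, followed by Zfp36l1 at 60.9 ± 6.04, Khsrp at 43.7 ± 1.28, Zfp36 at 19.3 ± 1.48, Elavl1 at 9.84 ± 0.265, Zc3h12a at 8.93 ± 0.193, N4bp1 at 8.05 ± 0.221, Rc3h1 at 4.40 ± 2.81, Rc3h2 at 2.37 ± 0.326 and Arid5a at 0.748 ± 0.153 (SD, n = 3). In the labelled libraries Zc3h12a stood at 39.4 ± 4.25, above Zfp36 and Elavl1, and Zfp36l1 at 96.2 ± 9.64 stood beside Zfp36l2 at 86.4 ± 10.0 (SD, n = 3), their libraries overlapping. The deposited FPKM values gave Zc3h12a 37.0 ± 3.90 in SNHG1-labelled and 8.35 ± 0.195 in vector controls (SD, n = 3 each). They were not used to order the genes, because the length they imply for Arid5a, 29592 bases, is longer than its span of 16297 bases. FPKM would change the order. They placed Zc3h12a above Elavl1, at 7.94, in vector controls. In SNHG1-labelled libraries they placed Zfp36l2, at 86.4, above Zfp36l1, at 75.2. For Zfp36l1 they imply 3827 bases, against 2990 merged exon bases here, so its level and family share depend on the length used. Merged exons were 12189 bases for N4bp1, 10363 for Elavl1 and 19624 for Rc3h2, against longest transcripts of 6469, 5743 and 8948 bases. For Zc3h12a they were 2882 against 2755 bases, so the order given here also depends on the length used.

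The promoters of the 2 members that rose are shown for context, from RefSeq on GRCm38.p6, running from 250 bases before to 50 bases after the start site on the minus strand, with GGGCGG (on either strand) and TATAAA (on either strand) in capitals. Of the 10 members, 9 matched a promoter entry. For both genes shown, the promoter lies outside the gene interval given above from the deposited table. The 2 sets of coordinates therefore cannot be set side by side.
Zc3h12a, chr4:125127832-125128131: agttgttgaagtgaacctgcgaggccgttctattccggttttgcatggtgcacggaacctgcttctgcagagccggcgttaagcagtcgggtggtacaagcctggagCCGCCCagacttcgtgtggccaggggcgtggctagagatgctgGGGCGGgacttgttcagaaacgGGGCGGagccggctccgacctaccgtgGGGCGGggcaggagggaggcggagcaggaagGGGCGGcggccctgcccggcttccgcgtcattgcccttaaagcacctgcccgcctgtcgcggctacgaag
Zfp36l1, chr12:80112964-80113263: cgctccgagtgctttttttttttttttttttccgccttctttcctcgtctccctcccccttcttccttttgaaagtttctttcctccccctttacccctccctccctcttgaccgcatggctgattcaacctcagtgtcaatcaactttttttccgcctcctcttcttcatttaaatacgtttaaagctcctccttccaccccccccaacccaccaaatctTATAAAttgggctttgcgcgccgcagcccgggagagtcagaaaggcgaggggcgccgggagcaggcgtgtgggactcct

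Zc3h12a held 5 copies of GGGCGG and no TATAAA, and Zfp36l1 held 1 TATAAA and no GGGCGG. A copy of GGGCGG was found in 6 of the 9 members and in 35.7% of 32851 promoters of the same length, and TATAAA in 1 of 9 and in 13.6%. The NF-kappaB consensus was searched on both strands and matched none of the 9, against 4.51% of all promoters. The absence of these letters in 300 bases says nothing about binding of the factor there or elsewhere.

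For each member that rose, the genes of most similar pattern were taken as those with the smallest root mean square difference in log2 CPM, centred over the 6 libraries, among 11090 other genes of at least 5 CPM. For Zc3h12a these were Cebpd, encoding the transcription factor C/EBP delta (difference 0.09, log2 fold change 2.01 ± 0.11), Ccn5 (0.12, 1.97 ± 0.08) and Ripk2, a kinase of innate sensing (0.14, 1.92 ± 0.09). For Zfp36l1 they were Sik1 (0.05, 0.65 ± 0.10), Adam8 (0.07, 0.70 ± 0.10) and the transcription factor gene Foxo3 (0.07, 0.62 ± 0.08, all errors SE). The rule uses the same 6 libraries, so fold changes close to that of the member follow from the selection.

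Genes that regulate Regnase-1 had 2 increases among 17 tested, where 1.54% of all tested genes rose. Traf3ip2 encodes Act1, the IL-17 receptor adaptor, and had 39.8, 39.6 and 38.3 CPM in SNHG1-labelled libraries and 28.2, 26.6 and 25.3 CPM in vector controls. It rose by 0.55 ± 0.07 on the log2 scale (SE; edgeR, adjusted p = 0.00713). Myd88, the adaptor of Toll-like and IL-1 receptors, had 44.9, 46.6 and 45.4 CPM in SNHG1-labelled libraries against 38.02, 35.8 and 36.9 CPM in vector controls, and rose by 0.31 ± 0.06 (log2, SE; edgeR, adjusted p = 0.0457); that call was lost in 8 of 14 alternatives. The most abundant genes of the list that did not pass were Ddx3x at -0.08 ± 0.06, Fbxw11, a subunit of the ligase that marks Regnase-1 for degradation, at -0.05 ± 0.05, and Srsf1 at 0.01 ± 0.07 (log2, SE).

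Genes of the kinase pathway that phosphorylates TTP had 1 decrease among 15 tested, where 0.856% of all tested genes fell. Map2k6, a kinase that activates p38, had 13.4, 12.9 and 12.9 CPM in SNHG1-labelled libraries and 18.2, 18.7 and 19.2 CPM in vector controls, and fell by 0.52 on the log2 scale (SE 0.08; edgeR, adjusted p = 0.0203). The call was lost in 6 of 14 alternatives, without SNHG1 overexpression replicate 2 or 3, without any of the vector controls and with the replicate block, with adjusted p of 0.00306 to 0.0941. The 14-3-3 genes Ywhag, Ywhae and Ywhaz, the most abundant that did not pass, were at 0.09 ± 0.05, 0.00 ± 0.05 and -0.20 ± 0.06 (log2, SE).

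Genes of the decay machinery, and relatives of the members with other AU-rich element binders, did not pass in any of 5 lists. Deadenylation genes numbered 19 tested (median log2 fold change -0.04), decapping and 5′ to 3′ decay genes 15 (0.01), exosome genes 16 (0.01), UPF1 and nonsense-mediated decay genes 10 (-0.06) and relatives of the members with other AU-rich element binders 17 (-0.09). At an unadjusted p under 0.05 there were 2, 4, 2, 3 and 3 genes in these lists, in the same order, against 17% of all tested genes. DESeq2 and limma-voom called none. Only 2.4% of all tested genes passed, so the absence of calls does not set these lists apart. The scaffold of the deadenylase, Cnot1, stood at 329 ± 16.9 CPM in SNHG1-labelled libraries and 347 ± 17.1 CPM in vector controls, and Upf1, the helicase that works with Regnase-1, at 153 ± 5.21 CPM in SNHG1-labelled libraries and 158 ± 6.57 CPM in vector controls (SD, n = 3 each). Pabpc1, the cytoplasmic poly(A)-binding protein gene, was at 0.10 ± 0.06, Btg1 at 0.22 ± 0.07, the decapping activators Ddx6 and Pnrc1 at -0.22 ± 0.07 and 0.24 ± 0.07, the decapping enzyme Dcp2 at -0.10 ± 0.05, and Ybx1, Hnrnpab and Pcbp1 at 0.15 ± 0.06, 0.09 ± 0.06 and 0.09 ± 0.08 (log2, SE). The exosome-associated genes Skic2, Exosc10 and Skic8 were at 0.08 ± 0.07, 0.03 ± 0.06 and -0.31 ± 0.09, and Smg1, the kinase that phosphorylates UPF1, at -0.08 ± 0.07 (log2, SE). Regnase-1 relatives Zc3h12b and Zc3h12c, chosen after their values were seen, were at -0.13 ± 0.19 and -0.11 ± 0.13 (log2, SE).

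**Figure D4:**
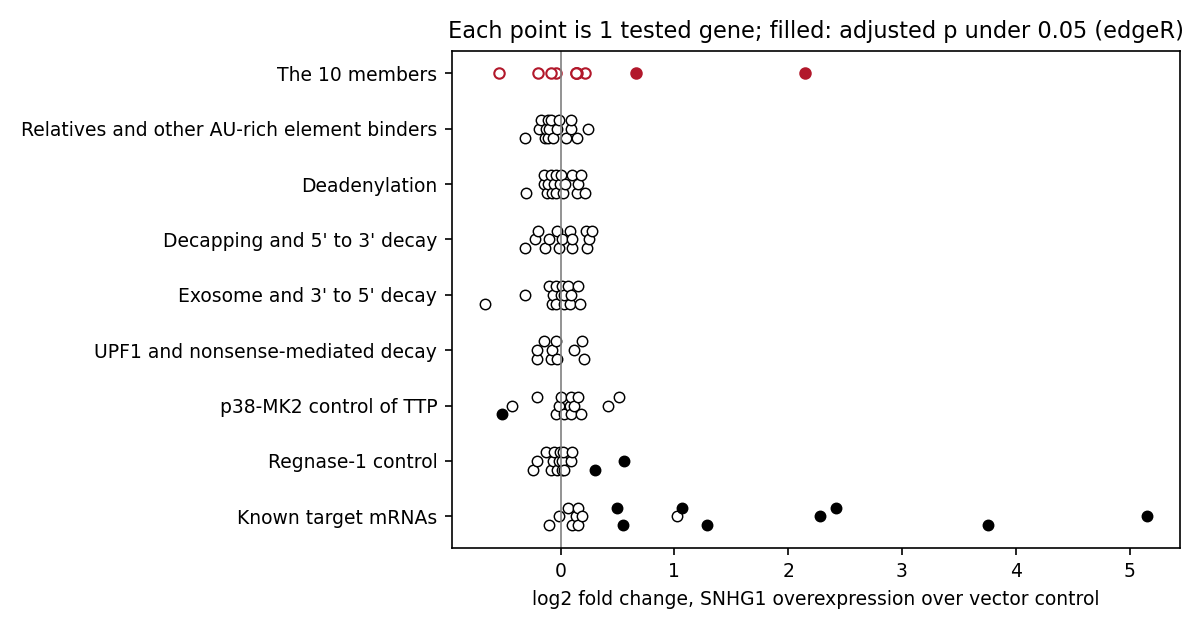
Log2 fold change of every tested gene, labelled SNHG1 overexpression over vector controls (n = 3 each), for the 10 members (red) and for 8 lists; filled points have an adjusted p under 0.05 (edgeR, all genes tested). No gene is filled in 5 lists of decay factors and RNA binders, whereas 8 of 17 known target mRNAs are filled, all to the right of 0.

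Known target mRNAs of the members were the list with the most increases. Of 29 listed genes 17 were tested, and 8 rose and 0 fell, with a median log2 fold change of 0.49. Over all tested genes 1.54% rose. The list was written with the rise of several of its genes already known, so its count is a description. With DESeq2 and with the replicate block 7 passed, and 6 to 8 as single libraries were left out. Nfkbiz, a Regnase-1 target whose hairpins are printed above, had 183.7, 116.3 and 152.2 CPM in SNHG1-labelled libraries and 32.2, 31.3 and 29.7 CPM in vector controls. Its log2 fold change of 2.28 ± 0.15 (SE; edgeR, adjusted p = 0.000276) stood beside 2.14 for Zc3h12a itself. Nfkbid had 4.83, 6.08 and 6.44 CPM in SNHG1-labelled libraries and 1.86, 2.65 and 2.66 CPM in vector controls, and rose by 1.28 ± 0.20 (log2, SE; edgeR, adjusted p = 0.016); without any of 5 single libraries it no longer passed, with adjusted p of up to 0.0658. For both genes, which encode nuclear modulators of NF-kappaB, every SNHG1-labelled library lay above every vector control.

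Cxcl1, the neutrophil chemokine gene whose AU-rich site is printed above, had 202.2, 229.5 and 256.6 CPM in SNHG1-labelled libraries and 14.1, 18.005 and 18.996 CPM in vector controls, with no overlap. Cxcl1, Ccl2, Lcn2 and Ier3 rose, at 3.75 ± 0.14, 2.42 ± 0.10, 5.15 ± 0.64 and 1.07 ± 0.12 on the log2 scale (SE). Lcn2 had 50, 77 and 41 counts in SNHG1-labelled libraries and 4, 0 and 0 in vector controls. Only the labelled libraries therefore carried it past the filter on low counts, and 13 of the 14 alternatives gave it a value. With no count in 2 vector controls its fitted value depends on the prior count. That value was 4.60 to 8.71 as single libraries were left out, the highest without vector control replicate 1. Tfrc, encoding the transferrin receptor and a Regnase-1 target, and Stat3, a message that Arid5a stabilises, fell outside the rule for named genes and are given because they complete the 8, at 0.49 ± 0.09 and 0.55 ± 0.06 (log2, SE). The call of Tfrc was lost with the replicate block and without any library but SNHG1 overexpression replicate 1, at adjusted p of up to 0.122 (edgeR), whereas Stat3 kept its call in the 14 alternatives. Other listed targets did not pass. Il6, chosen after its values were seen, had 2.47, 2.42 and 3.37 CPM in SNHG1-labelled libraries and 1.86, 1.36 and 0.814 CPM in vector controls. Its groups did not overlap, at 2.03-fold with a 95% interval of 1.25- to 3.29-fold (edgeR, adjusted p = 0.145). Ptgs2, which holds 1 nonamer, was at 323 ± 10.4 CPM in SNHG1-labelled and 348 ± 1.72 CPM in vector controls (SD, n = 3 each; edgeR, adjusted p = 0.328), and Ccnd1 and Dusp1 were at 0.07 ± 0.08 and 0.15 ± 0.08 (log2, SE). Of the 12 listed genes that were not tested, 7 had no count in any library, among them Tnf, Cxcl2 and Il1b, a limit of 0.193 CPM (3 counts) where depth was lowest.

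These measurements are of mRNA levels, so neither the stability of a message nor the protein or activity of Regnase-1 was measured.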

How the data were processed

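The authors deposited 1 table with whole-number counts and FPKM values per gene and library. Tools named in the submitters' processing notes are HISAT2, StringTie and SAMtools 1.3.1, with GRCh38 as build, although all rows carry mouse identifiers. The sources used here do not give how reads were counted, whether by strand, or on which build coordinates rest. Reads of overlapping or near-identical genes may therefore be shared. Libraries were grouped by title. Counts were tested with edgeR 4.0.16 (R 4.3.3; TMM, default filter, group as the only term, quasi-likelihood F test, Benjamini-Hochberg over all 14605 tested genes, threshold 0.05). CPM were scaled by TMM factors; errors are SD over 3 libraries or SE of the fit. Exact permutation tests compared within-library ratios. Merged exon lengths, GC content and 3′ untranslated regions came from GENCODE M21, using the longest transcript or region per gene, and promoters from RefSeq. A count of 0 allows 3 counts; floors cover counting error only. No replicate pair agreed within sampling noise (chi-square per degree of freedom 10.6 to 16.7). The script was tested on simulated counts.

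The members and lists were chosen with earlier results of these data known. The rule for named genes took all members, up to 6 called genes per list and direction, the 3 most abundant genes per list that did not pass, and the 3 nearest patterns of each called member. The value of 1 gene that this rule names is not reported here. Alternatives were scaling by total counts or by median-of-ratios size factors, no filter, 1 CPM in 3 libraries, DESeq2 1.42.0, limma-voom 3.58.1, the replicate block, leaving out each library and, added after seeing the data, removal of GC and length trends (mgcv 1.9.3).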

Additional observations from a re-analysis of the deposited data

How the results depend on the processing

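Zc3h12a kept its direction and call in the 14 alternatives, with a log2 fold change of 2.07 to 2.23, and Zfp36l1 in 13, with 0.57 to 0.72 as single libraries were left out. Members called numbered 2 in every alternative except without vector control replicate 1, where Zfp36l1 was lost (1 to 2 over the left-out libraries). Leaving out single libraries gave -0.80 to 0.12 for Rc3h1 and -0.208 to 0.0837 for Arid5a, both positive without vector control replicate 3. Over all genes, against 350 calls, DESeq2 gave 691, the replicate block 163 and single omissions 123 (without vector control replicate 1) to 807 (without SNHG1 overexpression replicate 1); the cause was not tested. Called genes ran from 0 to 1 for deadenylation, 0 to 2 for decapping, 0 to 2 for the p38 list, 1 to 2 for the Regnase-1 control list and 6 to 8 for known targets as libraries were left out. The p38 list had 0 with the replicate block, and the Regnase-1 control list 1 with no filter, with the block and with GC and length trends removed. Signs of values near 0 turned for Cnot1 (0.0011), Exosc10 (-0.023) and Smg1 (0.021) with those trends removed, for Ywhae with median-of-ratios size factors (-0.00022) and 1 CPM in 3 libraries (-0.0050), and as libraries were left out for Zc3h12b (-0.268 to 0.022), Mapk14 (-0.00094 to 0.75), Ywhae (-0.028 to 0.011), Srsf1 (-0.042 to 0.058) and Ccnd1 (-0.00034 to 0.15). The replicate numbers share no stated origin, and deviations of same-numbered libraries correlated at -0.05 to 0.05, so the block was not read as a pairing; under the replicate block 2 members were called, with Zc3h12a at 2.14 and Zfp36l1 at 0.66. Every member had at least 152 counts in every library, Arid5a the fewest, and counting error is largest there.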

Other observations

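Some genes of the lists differed over 2-fold between libraries of the same group, as Rc3h1 did. Mapk14, which encodes p38 alpha upstream of TTP, had 86.7 CPM in SNHG1 overexpression replicate 2 and 40.2 and 35.5 CPM in the other replicates, against 41.4, 33.8 and 38.4 CPM in vector controls. Exosc6, an exosome subunit gene, had 24.0, 3.8 and 5.50 CPM in SNHG1-labelled libraries and 24.1, 1.61 and 26.5 CPM in vector controls. Both were looked up after their values were seen. Between 6 and 14 of 8235 genes averaging at least 20 CPM stood over 2-fold above both other libraries of their group in a given library. Exosc6, with a mean of 14.2 CPM, was not among the genes so counted.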
